A study of Mus musculus with 5 samples.

Results

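The progenitor-only promoter peaks of ZFP24 are the places beside gene starts where a ZFP24 peak was listed in oligodendrocyte progenitor cells (OPC) and no overlapping peak was listed in oligodendrocytes (OLG). They were chosen from the measured peak positions by 2 criteria. The OPC peak shared no base with any OLG peak, and its centre lay at most 1 kb from where a protein-coding transcript starts. Of the 4643 peaks of the OPC list, 1499 (32.3%) met both. They made up 34.2% of the 4389 OPC peaks that overlapped no OLG peak, and 91.1% of the 1646 OPC peaks near a start. The remaining 147 OPC promoter peaks overlapped an OLG peak and are called shared promoter peaks below. The OLG list of 1752 peaks held 690 promoter peaks that overlapped no OPC peak, called OLG-only promoter peaks.

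Chromatin immunoprecipitation and sequencing (ChIP-seq) was done with an antibody to ZNF24, the human name of ZFP24, which in the mouse is also called ZFP191. Cells came from the brains of C57BL/6 mice at postnatal day 7, either wildtype or Zfp191-null, and were purified by immunopanning, which captures cells by a surface antigen on a coated dish. The OLG were progenitors cultured for 5 days without the mitogen PDGF and with 40 ng/ml triiodothyronine, the thyroid hormone that promotes their maturation. The 5 libraries were wildtype OPC, null OPC, wildtype OLG, null OLG and an input pooled from wildtype and null cells of both stages, with 1 library each. Null cells lack the factor and so can serve as a control for the antibody. How they entered peak calling is not stated in the sources used here, and their signal at the peaks was not analysed. The lists hold positions only, so library depths are unknown, the cell type labels could not be checked against marker genes, and an OPC-only peak means a peak listed in OPC and not in OLG. Tests below compare classes of peaks in these 2 lists and not replicated conditions. The exact (Clopper-Pearson) 95% intervals given in brackets cover counting error over peaks or genes only.

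ZFP24 is a zinc finger transcription factor that mice need for normal myelin in the central nervous system. Progenitors divide and migrate until they leave the cell cycle and become oligodendrocytes, which then turn to the synthesis of myelin membrane. Many promoters of widely used genes lie in CpG islands, stretches rich in G, C and the dinucleotide CpG that are mostly unmethylated, while a smaller number lie in sequence of average composition. Tandem repeats of the 4 bases TCAT are the known recognition sequence of ZFP24.

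Among the peaks, 2 kinds of sequence are shown here. The first, in 24 peaks (1.60%), held at least 12 bases of tandem TCAT, which reads ATGA on the opposite strand. The following 8 are the longest of these tracts, the last of them tied at 28 bases with a tract at Slc30a6 that reads TCAT and is not printed. They are shown because they carry the repeat at its full length, each as 90 bases around the tract from GRCm38, 5' to 3' along the strand of the gene, with the tract in capitals.
Cd5 (chr19:10739833-10739922, - strand): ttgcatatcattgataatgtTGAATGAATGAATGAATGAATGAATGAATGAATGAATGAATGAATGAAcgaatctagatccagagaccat
Cfap45 (chr1:172521513-172521602, + strand): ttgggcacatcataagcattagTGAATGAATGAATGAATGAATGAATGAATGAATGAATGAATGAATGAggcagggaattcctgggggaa
Gm3646 (chr1:39805902-39805991, - strand): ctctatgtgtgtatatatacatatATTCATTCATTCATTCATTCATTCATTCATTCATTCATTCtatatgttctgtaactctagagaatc
Ncan (chr8:70121444-70121533, - strand): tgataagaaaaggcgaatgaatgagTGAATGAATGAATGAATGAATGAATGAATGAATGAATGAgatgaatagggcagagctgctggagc
Uhrf1 (chr17:56304645-56304734, + strand): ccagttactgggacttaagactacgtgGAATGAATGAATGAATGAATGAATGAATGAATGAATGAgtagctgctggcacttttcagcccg
Nbas (chr12:13268271-13268360, + strand): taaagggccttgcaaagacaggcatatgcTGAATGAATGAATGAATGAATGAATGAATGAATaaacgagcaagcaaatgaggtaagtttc
Slc26a8 (chr17:28689529-28689618, - strand): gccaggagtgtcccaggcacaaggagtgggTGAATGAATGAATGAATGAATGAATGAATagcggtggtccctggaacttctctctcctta
Rfx2 (chr17:56831955-56832044, - strand): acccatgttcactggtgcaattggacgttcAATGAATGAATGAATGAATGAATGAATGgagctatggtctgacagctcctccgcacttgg
The tracts printed were 28 to 48 bases long, and 7 of the 8 read ATGA along the strand of the gene, while that of Gm3646 reads TCAT. The other, CpG-rich sequence, was in 70.4% of the peaks, 2 of which also held a tract, and 421 peaks (28.1%) held neither. It is shown for 3 genes picked as examples, namely the lineage factor Olig1, the chromatin remodeller Smarca4 and the mitotic kinase Cdk1. The peaks at the progenitor markers Ptprz1, Ncan and Xylt1 were not CpG-rich. The stretches printed below lie within the peaks and were chosen to hold little or no untranslated sequence. They are in lower case throughout, because none of the 16 promoter motifs searched and no TCAT tract was found in them.
Olig1 (chr16:91270092-91270211, + strand): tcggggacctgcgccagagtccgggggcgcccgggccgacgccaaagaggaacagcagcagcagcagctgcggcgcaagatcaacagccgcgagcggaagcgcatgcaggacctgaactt
Smarca4 (chr9:21616490-21616609, + strand): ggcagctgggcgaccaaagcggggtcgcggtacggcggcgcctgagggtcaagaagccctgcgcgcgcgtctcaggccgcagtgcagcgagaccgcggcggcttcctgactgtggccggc
Cdk1 (chr10:69352773-69352835, - strand): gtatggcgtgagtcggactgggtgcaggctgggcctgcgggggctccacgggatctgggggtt
The 200 bp around the centre had a GC content of 67.5% at Olig1, 74.5% at Smarca4 and 67% at Cdk1, against 35.5% at Cd5 and 42.5% at Ncan.

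The members lay mostly just inside the gene. Distances are from the peak centre to the nearest protein-coding start, along the strand of the gene, and the limit of 1 kb was set by the rule. The median position was 158 bp downstream, and the median distance on either side was 255 bp. Centres were downstream of the start in 1053 members and upstream in 446 (29.8% [27.4 to 32.1]). The fullest 100 bp were those from 100 to 199 bp downstream, with 216 members. The first 300 bp of the gene held 590 members (39.4%), the 300 bp before the start held 274 (18.3%), and 283 (18.9%) lay within 100 bp of the start on either side. The centre was in an intron in 586 members (39.1%), in a 5' UTR in 353 (23.5%), in a coding exon in 239 (15.9%), outside genes in 261 (17.4%), in a non-coding exon in 55 and in a 3' UTR in 5. The 3 members just inside the limit lay 1000 bp upstream of Uap1, 998 bp upstream of Pcdh1 and 997 bp downstream of Fermt2, and the 3 OPC-only peaks just outside it lay 1001 bp from Sobp, 1001 bp from St3gal1 and 1003 bp from Jrkl.

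The side of the start, which the rule did not use, differed between the OPC-only and OLG-only peaks. Upstream centres made up 29.8% of the members and 22.6% [19.5 to 25.9] of the 690 OLG-only promoter peaks, which gives an odds ratio of 1.45 [1.17 to 1.80] and, by a two-sided Fisher's exact test, p = 0.00338 after Benjamini-Hochberg adjustment over 22 tests. Against the 147 shared promoter peaks, of which 32.7% were upstream, the odds ratio was 0.874 [0.601 to 1.28] and the exact test's adjusted p 0.586. The side does not depend on the choice of start where only 1 protein-coding start lay within 1 kb of the centre. Of such peaks, 27.9% of 739 members, 33.8% of 68 shared peaks and 18.4% of 354 OLG-only peaks were upstream. The difference from the OLG-only peaks was not past the threshold when the limit was 500 bp (odds ratio 1.32, adjusted p = 0.127 in the same exact test), or in the 50% of peaks with the lower numbers in their names (1.35, adjusted p = 0.162).

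**Figure D1:**
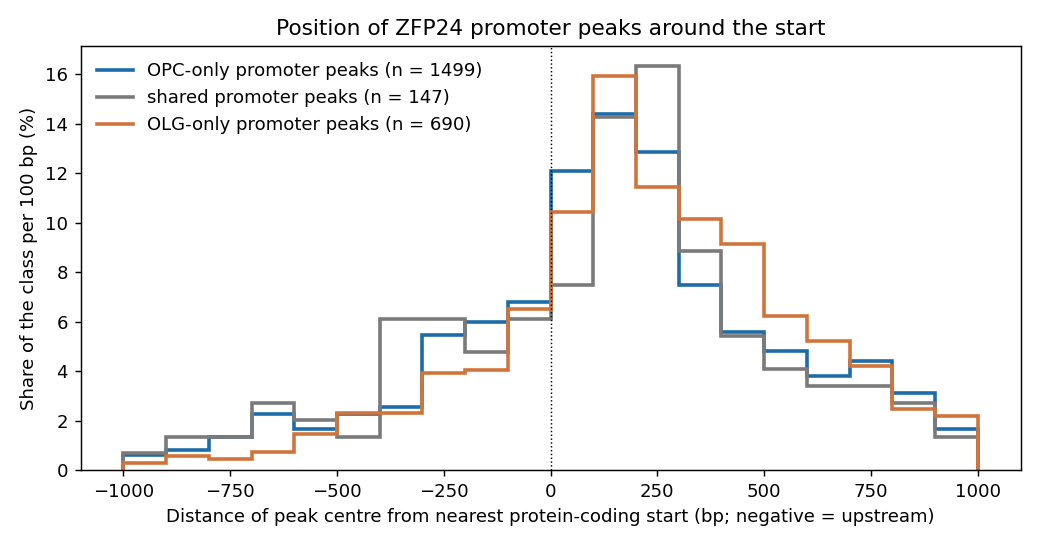
Share of each class of ZFP24 promoter peaks (percent per 100 bp, vertical axis) by signed distance of the peak centre from the nearest protein-coding start (bp, horizontal axis, negative values upstream); lines stand for the 1499 OPC-only, 147 shared and 690 OLG-only promoter peaks. All 3 classes are highest downstream of the start, and the OPC-only line reaches 14.4% at 100 to 199 bp downstream.

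Most members lay far from any OLG peak. The distance to the nearest OLG peak had a median of 258296 bp. An OLG peak lay within 100 bp of 24 members (1.60%), within 1 kb of 81 (5.40%) and within 100 kb of 430 (28.7%). The smallest gaps were 0 bp at Sfswap, 2 bp at Mcub and 7 bp at Abi2. The shared peaks with the smallest overlaps shared 17 bases at Galnt1, 19 at Klhdc4 and 23 at Slc33a1. For these few peaks the class rests on a shift of some bases.

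The members were less CpG-rich than either other class of promoter peaks. A peak counted as CpG-rich when the 200 bp around its centre had at least 50% GC and an observed-to-expected CpG ratio of at least 0.6. This held for 1056 of 1499 members (70.4% [68.1 to 72.7]), 577 of 690 OLG-only promoter peaks (83.6%) and 121 of 147 shared promoter peaks (82.3%). The odds ratio was 0.467 [0.367 to 0.590] against the OLG-only peaks (Fisher's exact test, adjusted p = 3.50e-10) and 0.512 [0.317 to 0.801] against the shared peaks (adjusted p = 0.0115). The first call held under every other setting run, and the second was not past the threshold under 3 of them (adjusted p from 0.0858 to 0.290). Median GC content was 63.5% (quartiles 56 and 69.5) in the members, 67% in the shared and 68.5% in the OLG-only promoter peaks, and 48% in the OPC peaks away from promoters. The mean GC of the members was broad around the centre, at 62.1% in the 50 bp from the centre onward, and declined to 47.7% and 47.5% about 1 kb to either side.

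Composition changed with position among the members. Of the 590 members in the first 300 bp of the gene 88.0% were CpG-rich, with a median GC of 67%, and of the 172 members more than 300 bp upstream 41.3% were, with a median GC of 56%. Upstream members were CpG-rich in 57.2% of cases and downstream members in 76.1%, so that the odds ratio was 0.420 [0.330 to 0.535] (two-sided Fisher's exact test, adjusted p = 2.19e-12 over 3 tests).

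**Figure D2:**
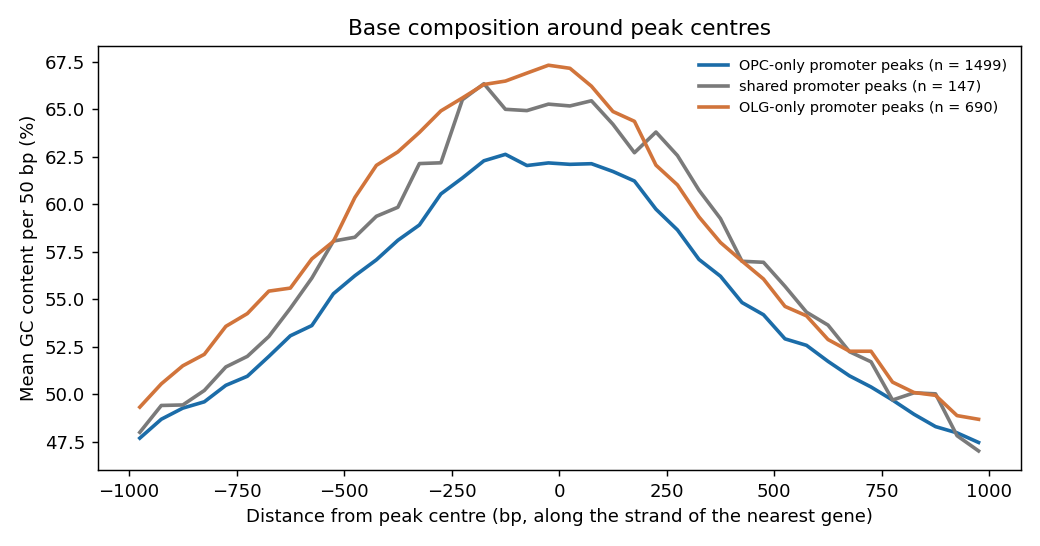
Mean GC content per 50 bp (percent, vertical axis, not starting at 0) by distance from the peak centre (bp, horizontal axis, along the strand of the nearest gene) for the 3 classes of promoter peaks. The OPC-only line reaches 62.6% at its highest, below the 67.3% of the OLG-only line.

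Other features of the genes beside the peaks differed little. Starts of different genes on both strands within 1 kb of the centre were found for 152 members (10.1% [8.66 to 11.8]), 7.48% of shared peaks and 6.96% of OLG-only promoter peaks. The order of these starts was not checked, so the count is not limited to bidirectional promoters. Against the OLG-only peaks the odds ratio was 1.51 [1.07 to 2.16], with an adjusted p of 0.0483 in Fisher's exact test, and the call was lost under 6 other settings. One such peak lay 92 bp downstream of the start of Orc1, which encodes a subunit of the origin recognition complex. The same peak was 210 bp upstream of the start of the splicing factor gene Prpf38a. A further one lay 146 bp from the translation factor gene Eef1b2 and 149 bp from Ndufs1, a subunit of respiratory complex I. Centres in coding exons were less frequent among the members than among the OLG-only peaks (15.9% against 20.1%, odds ratio 0.752 [0.593 to 0.956], exact test, adjusted p = 0.0483), and centres outside genes more frequent (17.4% against 13.0%, 1.41 [1.08 to 1.84], adjusted p = 0.0370). Each of these 2 calls was lost under 3 or more other settings. Both shares are tied to the side of the start, so the calls are not separate from the difference in side. Coding exons held 23.2% of members in the first 300 bp downstream and 1.82% of those in the 300 bp upstream. Genes of a single exon were nearest to 43 members (2.87%), among them Olig1, Sox2, the BMP antagonist gene Nog, 6 core histone genes and the linker histone gene H1fx. They were nearest to 0 of 147 shared promoter peaks, a count that allows a share of up to 2.48% (Fisher's exact test, adjusted p = 0.0691). Among the OLG-only promoter peaks the share was 26 of 690 (3.77%), with an odds ratio of 0.754 [0.449 to 1.29] and an adjusted p of 0.494 in the same exact test. No difference past the threshold was found from either class in introns, 5' UTRs, genes with starts over 500 bp apart, or further peaks within 10 kb. In these 8 tests the intervals of the odds ratio all held 1, and they ran from 0.427 to 1.89 at their widest.

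**Figure D3:**
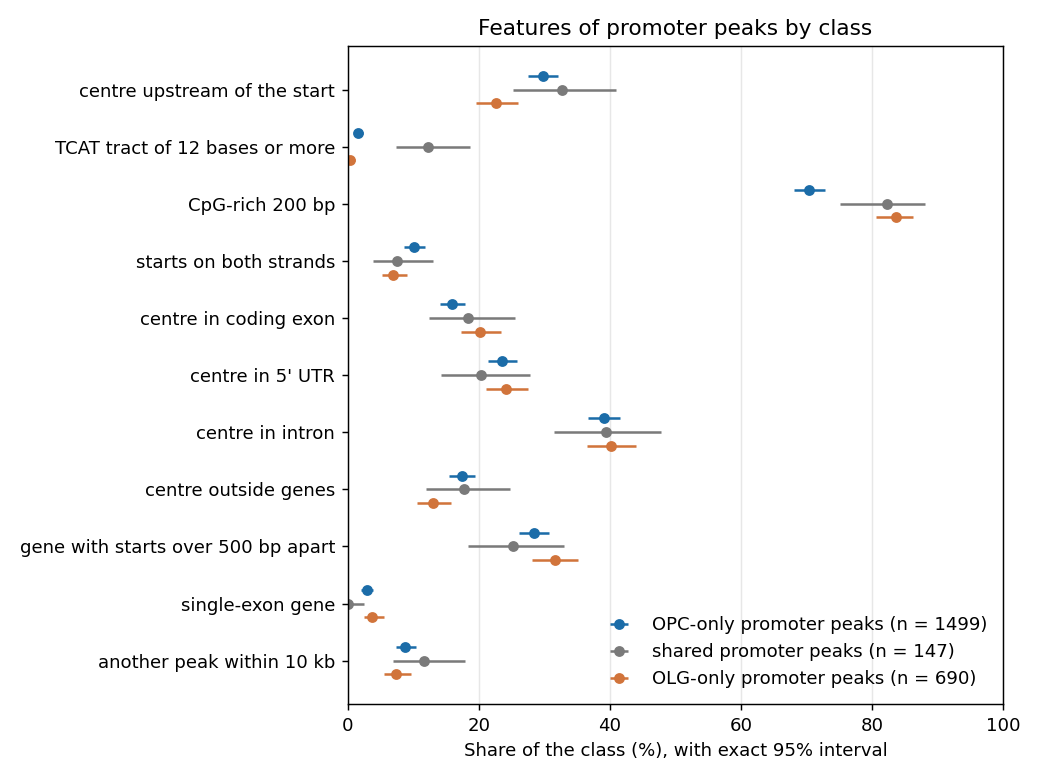
Share of each class (percent, horizontal axis) with each of 11 features (vertical axis) in the 1499 OPC-only, 147 shared and 690 OLG-only promoter peaks, as points with exact 95% intervals as bars. The members stand lowest for CpG-rich sequence at 70.4%, and the shared peaks stand highest for the TCAT tract at 12.2%.

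The recognition repeat was rare among the members. A TCAT tract of at least 12 bases in the 200 bp around the centre was found in 24 of 1499 members (1.60% [1.03 to 2.37]), in 18 of 147 shared promoter peaks (12.2% [7.42 to 18.7]) and in 2 of 690 OLG-only promoter peaks (0.290% [0.0351 to 1.04]). The members were below the shared peaks, and the odds ratio was 0.117 [0.0591 to 0.235] (Fisher's exact test, adjusted p = 2.88e-08); this call held under every setting run. Against the OLG-only peaks the odds ratio was 5.59 [1.38 to 49.0] and the exact test's adjusted p 0.0370, but that rests on 2 OLG-only peaks and was not past the threshold under 5 other settings. Windows of the same width 2 kb to the left and right of the members held a tract in 2 and 5 of 1499 cases.

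The 24 peaks with a tract are described here, and of their features only the side is given with a test. Their median distance from the start was 659 bp (198 to 965), against 252 bp for the members without a tract. Of the 24, 11 were centred in introns, 12 outside genes and 1 in a non-coding exon. The peak at Cd5, a surface receptor of lymphocytes, held the longest tract, 48 bases at chr19:10739855-10739902, with its centre 864 bp upstream of the start. At Ncan, which encodes neurocan, a chondroitin sulphate proteoglycan of the brain matrix, a 39-base tract lay in a peak 648 bp upstream. The peak at Uhrf1, which encodes a protein that maintains DNA methylation at replication, held 38 bases and lay in an intron 364 bp downstream, with an OLG peak 101 bp away. Shorter tracts of 18 and 16 bases lay upstream of Ift81, a subunit of the ciliary transport machinery, and of Ccne1, the gene of cyclin E1. Only 2 of the 24 (8.33%) were CpG-rich, at Cog1 and Ehd4, against 71.5% of the members without a tract and 7 of the 18 shared promoter peaks with one (38.9%). The tract, which holds no CpG, lies in the same 200 bp that define CpG-rich sequence, so these shares are a description. Of the 24 peaks 14 were upstream of the start and 10 downstream. A tract was thus in 3.14% of the 446 upstream and 0.950% of the 1053 downstream members. The odds ratio was 3.38 [1.38 to 8.57] (two-sided Fisher's exact test, adjusted p = 0.00795 over 3 tests). Of all 334 tracts of this length within 1 kb of a protein-coding start 200 (59.9% [54.4 to 65.2]) were upstream.

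The orientation of the repeat was counted as well. In 20 of the 24 peaks (83.3% [62.6 to 95.3]) the longest tract read ATGA along the strand of the gene, and in 4 it read TCAT. In the shared promoter peaks ATGA was on the gene's strand in 10 of 18. Of all 334 tracts of at least 12 bases within 1 kb of a protein-coding start, 191 (57.2% [51.7 to 62.6]) read ATGA, and of the 276 at no peak 150 (54.3%) did. These counts were looked at after the sequences were seen and were not tested. The share of tracts at a member was higher for longer tracts, which was not tested. Of the 334 tracts 29 (8.68%) lay within 100 bp of the centre of a member. Among the 215 tracts with 12 to 15 bases that share was 4.65% [2.25 to 8.39]. It was 7.81% [2.59 to 17.3] where 16 to 23 bases were repeated (64 tracts), 22.9% [10.4 to 40.1] at lengths between 24 and 31 (35 tracts) and 30% [11.9 to 54.3] at lengths between 32 and 50 (20 tracts). Most long tracts near a start were thus at no member.

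**Figure D4:**
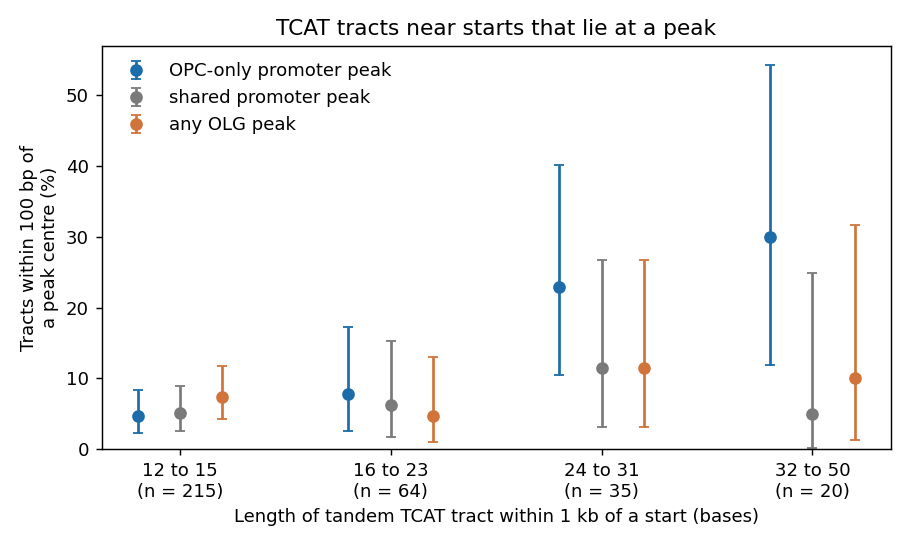
Share of TCAT tracts within 1 kb of a protein-coding start that lie within 100 bp of a peak centre (percent, vertical axis) by tract length (bases, horizontal axis), for OPC-only promoter peaks, shared promoter peaks and all OLG peaks, with exact 95% intervals as bars. The share at OPC-only promoter peaks was 4.65% for the shortest tracts and 30% for the longest.

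The number in the name of each peak, ranked within its chromosome, gives a coarse order, and no source used here says what it means. Its median percentile was 40.2 for the members, 24.5 for the shared promoter peaks and 56.7 for the OPC peaks away from promoters, and 7.90 for the 24 members with a tract. In the 25% of OPC names with the lowest numbers 18 of 458 members (3.93%) held a tract, and in the 25% with the highest 1 of 241 (0.415%) did. CpG-rich members declined in the same direction, from 82.3% to 59.8%, while the upstream share was 28.8% and 31.1%.

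The members marked 1630 of 21886 genes with a protein-coding transcript, a background of 7.45%, where a gene was marked if one of its starts lay within 1 kb of a member's centre. Of these, 1593 had 1 member, 35 had 2 members, and Cdk14 and Fam214a had 3 each. The count of genes exceeds that of peaks because 157 members lay at 2 genes and 6 at 3 or more. Genes with a CpG-rich start were marked in 11.9% of 12135 cases, and genes without one in 1.85% of 9751. By GC content around the start, the marked share went from 2.17% to 12.4% between the 4386 genes of lowest and the 4118 of highest GC. The X chromosome had 15 of 948 genes marked (1.58% [0.888 to 2.60]) and the Y chromosome 0 of 183, a count that allows a share of up to 1.996%, against 5.57% on chromosome 7 to 10.5% on chromosome 18 among autosomes. OLG-only promoter peaks marked 729 genes, a background of 3.33%. Both kinds of peak were found at 78 genes, which are 4.79% of the genes marked by members and 10.7% of those marked by OLG-only peaks.

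Lists of genes were read against these backgrounds, with counts and no test. The 27 lists held 1548 genes matched to the annotation, of which 206 (13.3%) were marked, and the median list had 12.4% marked. Because most lists consist largely of genes with CpG-rich starts, the share of 11.9% is the closer background for them, and 23 of the 27 intervals included it. Those of splicing and cell division lay above it, beginning at 16.9% and, just above it, at 12.3%. The interval of the cytoskeleton began at 12.04%, also just above it, and its share was 12.7% with the limit at 500 bp, where 5.64% of all genes were marked. The intervals were not adjusted for the number of lists, which were chosen with earlier results of these data known. The control genes are mostly without a CpG-rich start (3 of 43 have one), so 1.85% is the closer background for them.

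Regulators of the oligodendrocyte lineage were marked in 8 of 48 cases (16.7% [7.48 to 30.2]). Olig1, a basic helix-loop-helix factor of the lineage, had a member centred in its coding exon 380 bp downstream of the start, at chr16:91270048-91270256. Sox2, a factor of neural stem cells and progenitors, had one in its coding exon 611 bp downstream. Id4, which encodes an inhibitor of basic helix-loop-helix factors, had one in its coding exon 622 bp downstream. Nfia, a factor that promotes the formation of glia, had one in an intron 207 bp downstream. At Smarca4, which encodes the ATPase of the BAF chromatin remodelling complex, the member lay 286 bp downstream and an OLG-only peak lay 424 bp upstream of a start. The others were at Klf6 (138 bp downstream), Zfp488, a zinc finger regulator of oligodendrocytes (781 bp downstream), and Tcf3, a partner of Olig and other helix-loop-helix proteins (202 bp upstream). In 7 of these 8 the member was downstream, as were 1053 of all 1499 members. OLG-only promoter peaks were at 4 of the 48 genes (8.33%).

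Of 25 progenitor markers 3 (12% [2.55 to 31.2]) had a member, a share near the background of genes with CpG-rich starts. They were Ptprz1, a receptor tyrosine phosphatase that is also a proteoglycan (341 bp upstream), Ncan (648 bp upstream) and Xylt1, whose product starts the sugar chains of proteoglycans (609 bp downstream). Of 40 genes of myelin and mature oligodendrocytes 1 had a member (2.5% [0.0633 to 13.2]), and 3 of 40 (7.5%) had an OLG-only promoter peak. The member lay 163 bp upstream of Gpr37, an orphan receptor of maturing oligodendrocytes. Of these 40 genes 57.5% have a CpG-rich start. In the synthesis of cholesterol, fatty acids and sphingolipids 2 of 45 genes had a member, the ceramide synthase gene Cers6 (112 bp downstream) and the desaturase gene Fads2 (316 bp downstream). That is 4.44% [0.543 to 15.1], and 80% of these genes have a CpG-rich start. The intervals of the myelin and the lipid list each included the 7.45% of all genes and the 11.9% of genes with a CpG-rich start.

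Signalling genes were marked at receptors, ligands and inhibitors alike. In the BMP and TGF-beta pathway 9 of 38 genes had a member (23.7% [11.4 to 40.2]). They included the ligand gene Bmp2 (207 bp downstream), the receptor genes Bmpr2 (299 bp upstream) and Acvr1 (679 bp downstream), the extracellular antagonist gene Nog (166 bp downstream) and genes of inhibitors within the cell, Smad6 (643 bp upstream), Smurf2 (370 bp upstream) and Tgif1 (142 bp upstream). In growth factor, PI3K and mTOR signalling 11 of 52 genes had a member (21.2% [11.1 to 34.7]). Tsc1, whose product restrains mTOR, had one 30 bp upstream, and Rptor, a subunit of mTOR complex 1, had one 137 bp upstream. Eif4ebp1 and Rps6, downstream of mTOR in the control of translation, had members 109 bp and 221 bp downstream, and the adaptor gene Irs2 had one 143 bp downstream.

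In the Notch pathway 5 of 36 genes had a member (13.9% [4.67 to 29.5]), all downstream of the start, as were 1053 of all 1499 members. The Notch genes were the receptor gene Notch2 (29 bp), the ligand gene Jag2 (796 bp), the coactivator genes Maml1 (257 bp) and Maml2 (441 bp), and Dtx1, an E3 ligase of the pathway (140 bp). In the Wnt pathway 5 of 48 genes had a member (10.4% [3.47 to 22.7]), near the share of genes with CpG-rich starts. These were the nuclear effectors Tcf7 and Lef1, the receptor gene Lgr5 and the kinase genes Gsk3b and Csnk1a1. Among 43 genes of hedgehog signalling and the cilium 5 had a member (11.6%), including Dync2h1 and Ift81 of the transport within cilia.

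Genes of cell division were marked in 14 of 65 cases (21.5% [12.3 to 33.5]), all 14 with a CpG-rich start. They included the licensing factor gene Cdc6 (21 bp upstream), the mitotic kinase genes Cdk1 (70 bp downstream) and Aurkb (165 bp downstream), the spindle motor gene Kif11 (141 bp downstream), and Anapc1, a subunit of the anaphase-promoting complex (158 bp downstream). Both close relatives of the retinoblastoma gene had a member, Rbl2 77 bp downstream and Rbl1 144 bp upstream. OLG-only promoter peaks were at 6 of the 65 (9.23%). In DNA replication and repair 9 of 65 genes had a member (13.8% [6.53 to 24.7]), among them the origin recognition genes Orc1 (92 bp downstream) and Orc2 (463 bp downstream) and the checkpoint kinase gene Chek1 (89 bp upstream), and 1 of 65 had an OLG-only promoter peak.

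Genes of RNA splicing and RNA binding had the highest share of the 27 lists, 24 of 95 (25.3% [16.9 to 35.2]), and 7.37% had an OLG-only promoter peak. Of the 91 with a CpG-rich start 23 were marked, or 25.3%. Several of these members sat almost on the start, at Rbm25 (1 bp upstream), the small nuclear ribonucleoprotein gene Snrpd1 (3 bp downstream), Ewsr1 (6 bp downstream), the SR protein gene Srsf6 (18 bp downstream), Rbm39 (23 bp upstream), Hnrnpa1 (27 bp downstream), Tardbp, which encodes TDP-43 (48 bp downstream), and the splicing regulator gene Mbnl1 (60 bp downstream). In the 50% of peaks with the lower name numbers the share was 14.7%, where 4.72% of all genes were marked. The lists of translation (13 of 91, 14.3%), general transcription and Mediator (12 of 89, 13.5%), chromatin (12 of 97, 12.4%) and ubiquitin (11 of 100, 11%) were close to the share of genes with CpG-rich starts. Among the chromatin genes were Ino80 (59 bp upstream), Sin3a, a scaffold of histone deacetylase complexes (253 bp downstream), Kmt2e (270 bp downstream) and the histone methyltransferase gene Ehmt2 (308 bp downstream). All ribosomal protein genes taken by symbol gave 18 of 85 (21.2% [13.1 to 31.4]), with members 23 bp downstream of Rpl32 and 37 bp downstream of Rps27a. This interval lay above the 11.9% of genes with a CpG-rich start, and some of these genes are also in the translation list. Mitochondrial ribosomal protein genes gave 14 of 78 (17.9%).

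**Figure D5:**
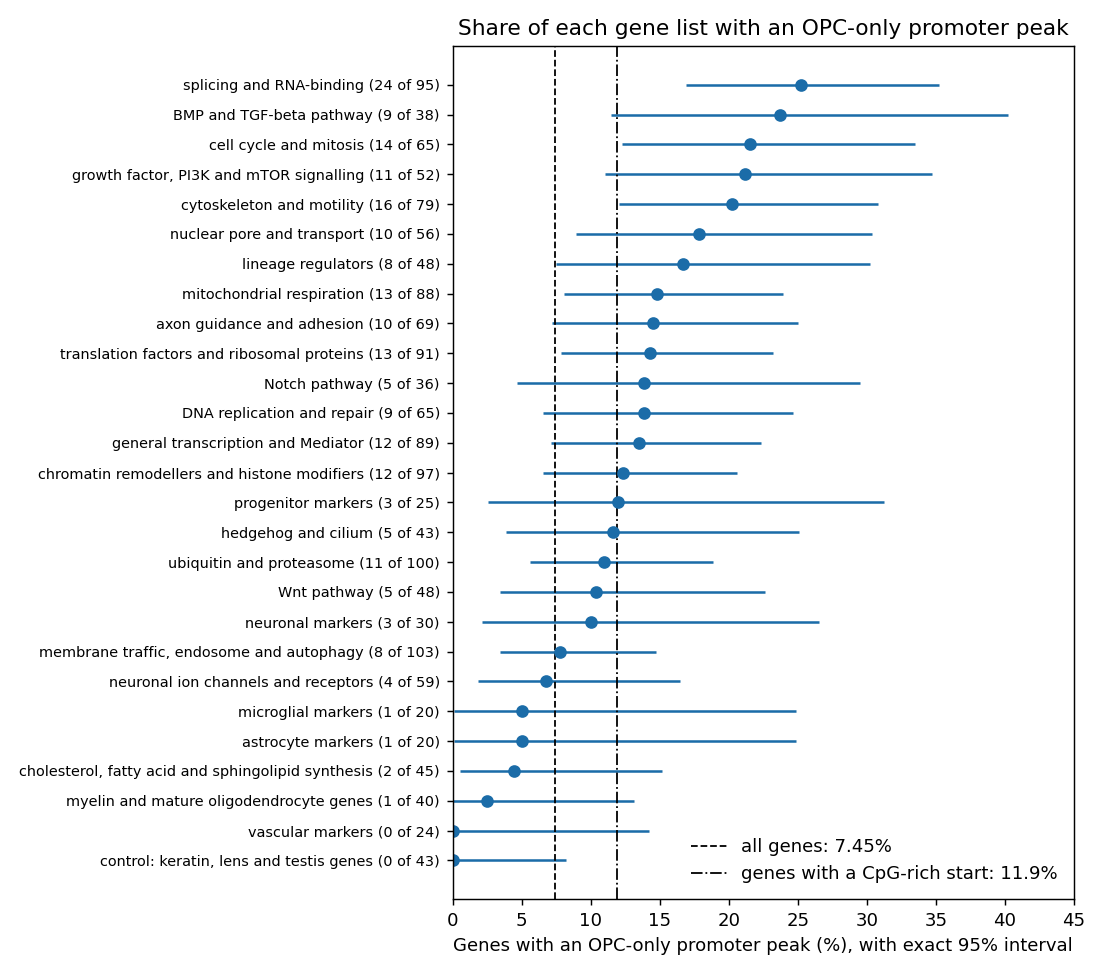
Share of genes with an OPC-only promoter peak (percent, horizontal axis) in each of 27 gene lists (vertical axis, with counts), as points with exact 95% intervals as bars; vertical lines mark all genes (7.45%) and genes with a CpG-rich start (11.9%). Splicing and RNA-binding genes have the highest share at 25.3%, and the vascular and control lists are at 0.

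Of 79 genes of the cytoskeleton and motility 16 had a member (20.3% [12.04 to 30.8]). Of these, 13 had it downstream, where 1053 of all 1499 members lay. The 16 genes included the formin gene Diaph3 (84 bp), the kinesin gene Kif5b (252 bp), the profilin gene Pfn1 (256 bp), the intermediate filament gene Vim (262 bp) and the tubulin genes Tuba1b (303 bp) and Tuba1a (334 bp), all on the downstream side. Tuba1a and Tuba1b are close paralogs, so that reads there may be hard to place. Of 56 genes of the nuclear pore and transport 10 had a member (17.9% [8.91 to 30.4]), with Nup85 (43 bp upstream) and Kpna3 (93 bp upstream) among them. Of 69 axon guidance and adhesion genes 10 had a member (14.5% [7.17 to 25.04]) and 9 an OLG-only promoter peak (13.0%), the members including the receptor genes Epha4 (63 bp downstream) and Dcc (132 bp downstream) and the netrin gene Ntn1 (180 bp downstream). Of 88 genes of mitochondrial respiration 13 had a member (14.8%), such as Atp5g3 of the ATP synthase (46 bp upstream). Membrane traffic gave 8 of 103 (7.77% [3.41 to 14.7]), and 96.1% of its genes have a CpG-rich start. Its interval included both the 7.45% of all genes and the 11.9% of genes with such a start.

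Markers of other cell types in the brain were counted as well. Of 59 neuronal ion channels and receptors 4 had a member (Grik2, Gria2, Grik5 and Cacna2d3), or 6.78% [1.88 to 16.5]. One of 20 astrocyte markers (Aldoc) and 1 of 20 microglial markers (Tmem119) had a member. None of 24 vascular markers and none of 43 control genes of keratin, lens and testis had one, counts that allow shares of up to 14.2% and 8.22%. Of families taken by symbol, odorant receptors had 0 of 1095 (up to 0.336% allowed) and vomeronasal receptors 0 of 326 (1.13%). Hox genes had 0 of 39 (up to 9.03% allowed) and keratins 0 of 49 (7.25%). Only 1 odorant receptor, 1 vomeronasal receptor and 5 keratin genes have a CpG-rich start, so 1.85% is the closer background there. Of the Hox genes 27 have one. Histone genes had 10 of 67 (14.9% [7.40 to 25.7]) and Ddx and Dhx helicases 9 of 53 (17.0% [8.07 to 29.8]). Forkhead genes had 7 of 44 (15.9% [6.64 to 30.1]) and Zfp zinc finger genes 36 of 365 (9.86% [7.00 to 13.4]). The intervals of these last 4 families included the 11.9% of genes with a CpG-rich start. Those of Rab GTPases (2 of 59, 3.39% [0.413 to 11.7]) and Slc solute carriers (27 of 369, 7.32% [4.88 to 10.5]) ended below it. Of their genes 83.1% and 59.6% have a CpG-rich start. The intervals were not adjusted for the number of families. A peak at a gene says nothing of its expression, which these lists do not hold.

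Some genes had a peak of each stage. Since both had to lie within 1 kb of a start of the same gene, short distances between them follow from the rule. Over the 78 genes with both a member and an OLG-only promoter peak the median distance between centres was 422 bp, and 43 of them (55.1%) had the centres within 500 bp. Of these genes 13 were in the lists. At Ntn1 the OPC peak lay 180 bp and the OLG peak 488 bp downstream of the start. At Sema7a, a semaphorin gene, the corresponding distances were 119 bp and 419 bp. At the splicing gene Rbm39 the OPC peak lay 23 bp upstream and the OLG peak 184 bp downstream, and at Myh10, a nonmuscle myosin gene, both lay upstream, at 627 bp and 387 bp. At Tmem119 the OPC peak held 3 TCAT tracts of 12 to 15 bases and ended 30 bp from an OLG peak. The remaining listed genes were Arid2, Cadm1, Clasp2, Cul1, Ehmt2, Med26, Smarca4 and Srsf2.

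No promoter motif differed past the threshold between the members and the other classes. Exact letters of 16 motifs were searched on both strands of the 200 bp around each centre, and 0 of 32 Fisher's exact tests passed after Benjamini-Hochberg adjustment, with 3 at an unadjusted p under 0.05. The SP/KLF GC box GGGCGGGG was in 5.67% [4.55 to 6.96] of members and 9.42% [7.35 to 11.8] of OLG-only promoter peaks (odds ratio 0.578 [0.408 to 0.823], exact test, adjusted p = 0.0597). The TATA box TATAAA was in 2.67% and 1.01% (odds ratio 2.67 [1.18 to 7.11], exact test, adjusted p = 0.177), and the NRF1 site GCGCATGCG in 11 members and 0 of 690 OLG-only peaks, which allows a share of up to 0.533% (exact test, adjusted p = 0.227). The ETS site CCGGAAG was in 5.87% of members and 5.80% of OLG-only peaks. Windows of the same length centred on gene starts held the GC box in 18.8% of all genes, but windows 158 bp downstream of the start, the median position of the members, held it in 7.05%. In CpG-rich windows at that offset the share was 12.3% [11.7 to 13.0], against 6.82% [5.37 to 8.51] in CpG-rich members. Members within 100 bp of the start held the ETS site in 15.2% [11.2 to 19.9] of 283 cases and the GC box in 9.19% [6.09 to 13.2], where CpG-rich gene starts held them in 16.1% and 32.1%. Of motifs linked to the lineage, the SOX site ACAATGG was in 1.33% of members, the OLIG-type E-box CAGATGG in 2.87% and the NFI motif TTGGCA in 5.94%. In CpG-rich members they were in 0.663%, 1.99% and 4.55%, and in CpG-rich windows at that offset in 0.757%, 1.56% and 4.28%, with overlapping intervals for each motif. The comparisons with windows at that offset were chosen after seeing the data and have no test.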

How the data were processed

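ChIP-seq for ZFP24 was done on 5 libraries, and the deposited files analysed here were 2 peak lists made by the authors, in mm10 coordinates, which give a position and a name for each peak but no score or count. The submitters' processing notes name BWA, without a version, HOMER 4.8.3 and mm10. Peak-calling options, the threshold, and the part played by the null and input libraries are stated in no source used here. A deeper or cleaner library yields more peaks, so absence from the OLG list is not absence of binding.

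Coordinates are 1-based, and 0 of 6395 peaks ran past a chromosome end of GRCm38.p6. Starts were those of protein-coding transcripts in GENCODE M21 basic. Sequences are from the RefSeq GRCm38.p6 genome, and 329 of 329 sampled RefSeq promoters equalled it. RefSeq listed 1587 of the 1629 marked gene symbols. Python 3.11.15, numpy 2.4.6, scipy 1.17.1 and pysam 0.24.0 were used. Classes of peaks were compared by two-sided Fisher's exact tests, adjusted by the Benjamini-Hochberg method over 22 feature tests and over 32 motif tests, with a threshold of 0.05, and the code was tested on simulated data. Upstream and downstream members were compared in the same way, adjusted over 3 tests. Gene lists were described by counts. Some genes that the rule below names are not reported here. For lists and families the genes named are all marked ones up to 8, or the 8 nearest to a peak centre; the longest tracts, the peaks nearest to each limit and a set of lineage genes are named too, and a few others (Orc2, Prpf38a, Ccne1, Cog1, Ehd4 and the genes with both kinds of peak) were picked after their values were seen. Members, lists, families, motifs and settings were chosen with earlier results of these data known.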

Additional observations from a re-analysis of the deposited data

How the results depend on the processing

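The number of members ran from 934 to 1691 and the number of marked genes from 1034 to 1832 over the other settings, lowest in the 50% of peaks with the lower name numbers (934 and 1034). Of 142 test results under other settings 106 kept direction and side of the threshold, and of 189 list shares 182 stayed within their interval. The lower share of TCAT tracts than in shared peaks and the lower share of CpG-rich members than in OLG-only peaks kept their side throughout. The motif tests gave 0 calls in 200 bp and 0 in 100 bp (unadjusted p under 0.05 in 3 and 1).

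The values below are odds ratios of the members for calls that were lost, and the cause was not tested. Against OLG-only peaks, with the limit at 500 bp, they were 1.32 (upstream), 1.397 (TCAT), 0.800 (coding exon), 1.23 (outside genes) and 1.29 (both strands). At 2 kb they were 1.33 (outside genes) and 1.39 (both strands). With 1 start per gene the value for both strands was 1.49. With no OLG peak within 1 kb the value for coding exons was 0.784. With under 50% of the peak covered they were 2.90 (TCAT), 0.773 (coding exon) and 1.46 (both strands). With the lower name numbers they were 1.35 (upstream), 3.34 (TCAT), 0.769 (coding exon), 1.35 (outside genes) and 1.69 (both strands). For TCAT they were 1.83 with tracts of 8 bases and 2.99 in 400 bp, and for both strands 1.27 with starts within 500 bp. Against shared peaks, CpG-rich gave 0.709 with no OLG peak within 1 kb, 0.558 with under 50% covered and 0.664 with the lower numbers.

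A call was gained for single-exon genes against shared peaks with 1 start per gene (9.63 against 8.81, with 0.5 added to each count; Fisher's exact test, adjusted p = 0.0497 against 0.0691), while the value was 1.23 with no OLG peak within 1 kb, 4.82 at 2 kb and 5.22 at 500 bp. Directions that were never past the threshold turned in introns (1.07 against OLG-only and 1.10 against shared peaks at 2 kb; against shared peaks 1.01 with 1 start per gene, 1.07 with no OLG peak within 1 kb and 1.04 with under 50% covered), in 5' UTRs (1.02 with 1 start per gene and 1.13 with the lower numbers, against OLG-only peaks), outside genes against shared peaks (1.13 at 500 bp and 1.13 with the lower numbers), for both strands against shared peaks (0.825 at 2 kb), for distant starts (1.02 with the lower numbers) and for another peak within 10 kb (1.09 with under 50% covered). No paired analysis was possible because each group has 1 library and the lists carry no replicates. Library depth is unknown, which limits what absence from a list can show.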
